A study of Mus musculus with 12 samples.

Results

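To examine how benzbromarone (BBR) and oleic acid (OA) altered the chemokine transcripts of cultured hepatocytes, 9 chemokine genes were followed among the 22471 features measured by RNA sequencing: Ccl2, Ccl7, Cxcl1, Cxcl2, Cxcl5, Cxcl10, Cxcl12, Cxcl16 and Cx3cl1. They were chosen by gene symbol, and all 9 were found. The study isolated hepatocytes from livers of young male C57BL/6J mice by collagenase perfusion, purified them on Percoll and cultured them in medium with serum. The 4 groups of 3 libraries were control (Con), OA (ConOA, the fatty acid given bound to albumin), BBR (a drug given against gout, since it lowers uric acid) and BBR+OA (BBROA). All 4 groups shared strain, sex and culture, and each treatment was given at a single dose. The sources used here do not state whether control cells received albumin, or whether the 3 biological replicates of a group were different mice or different wells, so p-values measure only the spread between labelled replicates.

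Chemokines are small secreted proteins that guide white blood cells along concentration gradients by binding G protein-coupled receptors. In the liver, hepatocytes, Kupffer cells (the resident macrophages), endothelial cells and stellate cells all make them, and injury or fat loading is known to raise several. Transcription of many of them is switched on by NF-kB, which binds the kappaB element in DNA, whereas Cxcl10 is also a classic interferon target, and Cxcl12 is made steadily in many tissues without inflammation. Cxcl16 and Cx3cl1 differ from the rest in being made as membrane-anchored proteins that proteases release from the cell surface.

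The genes fell into several genomic neighborhoods (mm10, the build named in the labels, with coordinates from the GENCODE annotation of that assembly). Ccl2 (ENSMUSG00000035385) lay on chromosome 11 at 82035571-82037453 on the plus strand, and Ccl7 (ENSMUSG00000035373) at 82045712-82047525 on the same strand, with 8258 bases between them. Cxcl16 (ENSMUSG00000018920) lay elsewhere on chromosome 11, at 70453983-70459984 on the minus strand. On chromosome 5, Cxcl5 (ENSMUSG00000029371) occupied 90759360-90761624, Cxcl1 (ENSMUSG00000029380) occupied 90891241-90893115, and Cxcl2 (ENSMUSG00000058427) occupied 90903871-90905938, all on the plus strand, with 10755 bases between Cxcl1 and Cxcl2. Cxcl10 (ENSMUSG00000034855) was on the minus strand of chromosome 5 at 92346638-92348889. Cxcl12 (ENSMUSG00000061353) lay on chromosome 6 at 117168535-117181367 and Cx3cl1 (ENSMUSG00000031778) on chromosome 8 at 94772009-94782427, both on the plus strand. All 9 are protein-coding genes, and each value below is for the whole gene.

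Promoter sequence, taken from RefSeq (GRCm38.p6, the same assembly), was at hand for 5 of the 9 genes: Cxcl1, Cxcl2, Cxcl10, Cxcl12 and Cx3cl1. Distances count from the start in RefSeq, not from the gene start given above. For Cxcl1 and Cxcl2 these starts differ, most for Cxcl2, so the distances depend on the annotation and are not compared between genes. Windows from 250 bases before to 50 bases after the start were searched on both strands for a kappaB pattern (GGG, any 3 bases, then TTCC), an interferon response pattern (ISRE, which is TTTC, any 2 bases, then TTTC) and an AP-1 pattern (TGA, any 1 base, then TCA). The kappaB letters were chosen after the matches of several patterns had been seen. The stretches below are those of Cxcl1 and Cxcl2, the pair that BBR lowered in both media, and of Cxcl10, which moved differently. These 3 genes were picked with their changes known, and all 3 held kappaB matches. Ccl2 and Ccl7, which BBR also lowered in cells without OA, had no promoter at hand. A link between matches and changes was not tested. Capitals mark the matches, and each sequence is written 5′ to 3′ on the strand of its gene, the Cxcl1 and Cxcl2 stretches running from 150 to 31 bases before the start and the Cxcl10 stretch from 220 to 31 bases before it.
Cxcl1 (chr5:90891095-90891214, plus strand): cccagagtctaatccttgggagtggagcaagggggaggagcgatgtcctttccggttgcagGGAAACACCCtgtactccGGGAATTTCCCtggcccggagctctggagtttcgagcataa
Cxcl2 (chr5:90903749-90903868, plus strand): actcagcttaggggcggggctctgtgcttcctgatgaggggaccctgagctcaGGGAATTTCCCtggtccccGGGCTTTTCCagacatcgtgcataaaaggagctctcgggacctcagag
Cxcl10 (chr5:92348920-92349109, minus strand): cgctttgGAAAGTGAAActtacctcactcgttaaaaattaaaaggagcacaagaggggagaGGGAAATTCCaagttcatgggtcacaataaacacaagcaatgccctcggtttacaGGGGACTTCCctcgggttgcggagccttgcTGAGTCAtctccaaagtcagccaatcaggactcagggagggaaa

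In Cxcl1, kappaB matches began 89 bases before the start and, overlapping on opposite strands, 71 and 70 bases before it. Cxcl2 had an overlapping pair at 97 and 96 bases and a further match at 78 bases. Both genes thus held the same run GGGAATTTCCC, and neither window held an ISRE or AP-1 match. In Cxcl10, an ISRE match began 213 bases before the start, kappaB matches 159 and 104 bases before it, and an AP-1 match 74 bases before it. The windows of Cxcl12 and Cx3cl1 held none of the 3 patterns. Over all 32851 promoter windows of the same length, 5.56% held a kappaB match, 3.44% an ISRE match and 7.81% an AP-1 match. A match is a run of letters and was not measured as a binding site.

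Library totals ranged from 15485508 to 23668379 counts, so that 1 count was worth between 0.0423 and 0.0646 CPM (counts scaled to the total of their library). All 12 libraries held the 10 hepatocyte markers examined, whose summed level was 42692 to 50546 CPM. Mitochondrial genes took 5.5% to 6.89% of counts. The first principal component held 45.8% of the variance and separated libraries with OA from those without it, and the second, with 16.1%, separated BBR from control libraries. No pair of libraries within a group agreed within counting noise.

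Ccl2 was by far the most abundant of the 9 transcripts per unit length in every group. By the FPKM values the authors deposited (fragments scaled by gene length and depth), its mean was 117.4 ± 11.1 (SD, n = 3) in control, 417.3 ± 25.0 in OA, 70.8 ± 17.9 in BBR and 440.8 ± 62.2 in BBR+OA. Cxcl16 came next, with mean FPKM of 33.1, 47.9, 35.4 and 45.4 in the same order, and Cxcl1 had 30.6, 47.1, 11.3 and 32.0. In control cells Cxcl16 and Cxcl1 were close in FPKM, whereas in BBR cells Cxcl1 lay below Cxcl10, whose mean FPKM was 13.1, 8.04, 13.4 and 8.08. Cxcl2, Ccl7 and Cxcl12 stayed between 0.697 (Cxcl2 in BBR) and 7.74 FPKM (Cxcl2 in OA). Cxcl5 and Cx3cl1 were near 0, at no more than 0.107 and 0.080 FPKM in any group.

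Of 35 mouse chemokine genes examined, 10 reached a mean of 1 FPKM in control, 13 in OA, 9 in BBR and 12 in BBR+OA, and 7, 7, 6 and 7 of these were among the 9 described here. The summed FPKM of all 35 was 218.9 ± 17.1 in control, 557.8 ± 30.9 in OA, 150.3 ± 24.1 in BBR and 558.6 ± 69.0 in BBR+OA (SD, n = 3). The 9 genes supplied 89.6% to 96.7% of that sum in a library. Ccl2 alone supplied a mean of 53.6% in control, 74.8% in OA, 46.7% in BBR and 78.8% in BBR+OA, so the summed level followed Ccl2.

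**Figure D1:**
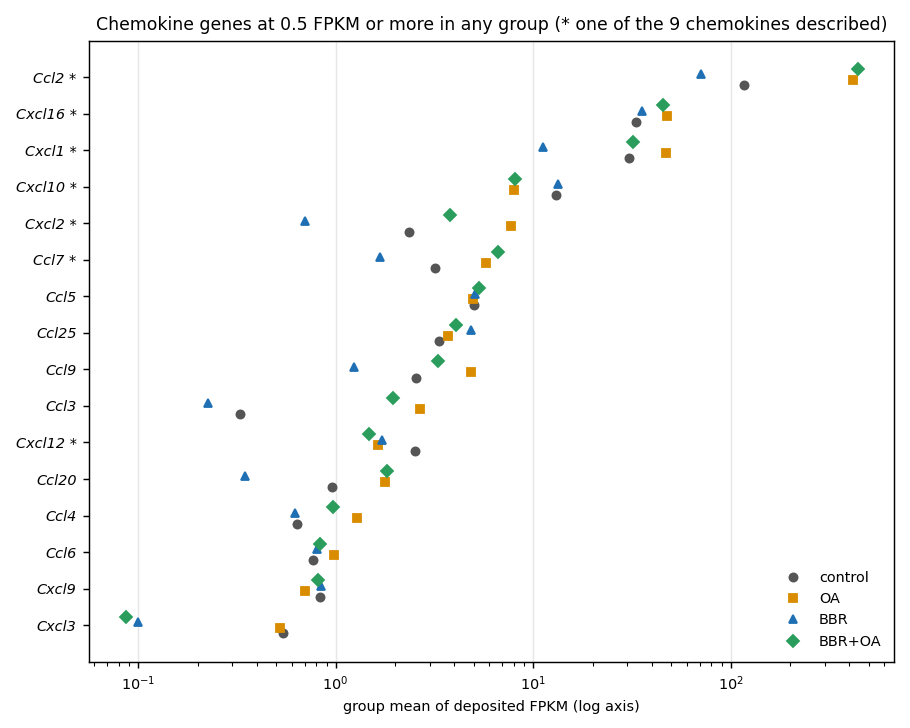
Group means of deposited FPKM on a log axis for the chemokine genes that reached 0.5 FPKM in any group, with 1 symbol per group and a star beside the genes described here. Ccl2 lies to the right of all other chemokines in every group, at 70.8 to 440.8 FPKM, and the gaps between groups are wide for Ccl3, Cxcl2, Cxcl3 and Ccl2.

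BBR lowered a subset of the chemokines, and OA raised most of them. Each comparison was fitted across all genes with edgeR, and a gene was called changed at a Benjamini-Hochberg adjusted p under 0.05. Of the 9 genes, 7 had enough counts to be tested, and Cxcl5 and Cx3cl1 did not. In BBR against control, 5 of the 7 fell (Ccl2, Ccl7, Cxcl1, Cxcl2 and Cxcl12) and none rose, where 27.7% of all 12555 genes tested were called and 14.5% were called lower. With OA present, BBR+OA against OA, Cxcl1 and Cxcl2 fell, 2 of the 7, where 4.59% of all 12278 genes were called and 2.63% were called lower. In OA against control all 7 were called, with Ccl2, Ccl7, Cxcl1, Cxcl2 and Cxcl16 higher and Cxcl10 and Cxcl12 lower, where 42.8% of all 12418 genes were called, 21.3% higher and 21.5% lower. In BBR+OA against BBR the same 5 rose and Cxcl10 fell, 6 of the 7, where 38.9% of all 12416 genes were called, 20.1% higher and 18.8% lower.

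The groups of 3 libraries did not overlap for 5 of the 7 genes in BBR against control (41.5% of all genes tested), for 2 in BBR+OA against OA (23.9%), for 6 in OA against control (52.2%) and for 6 in BBR+OA against BBR (49.6%). The median log2 fold change of the 7 genes was -0.70 in BBR against control, -0.080 in BBR+OA against OA, 0.66 in OA against control and 1.5 in BBR+OA against BBR, beside medians over all genes tested within 0.0061 of 0. Comparisons that use the same libraries, such as BBR against control and OA against control, share their error.

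**Figure D2:**
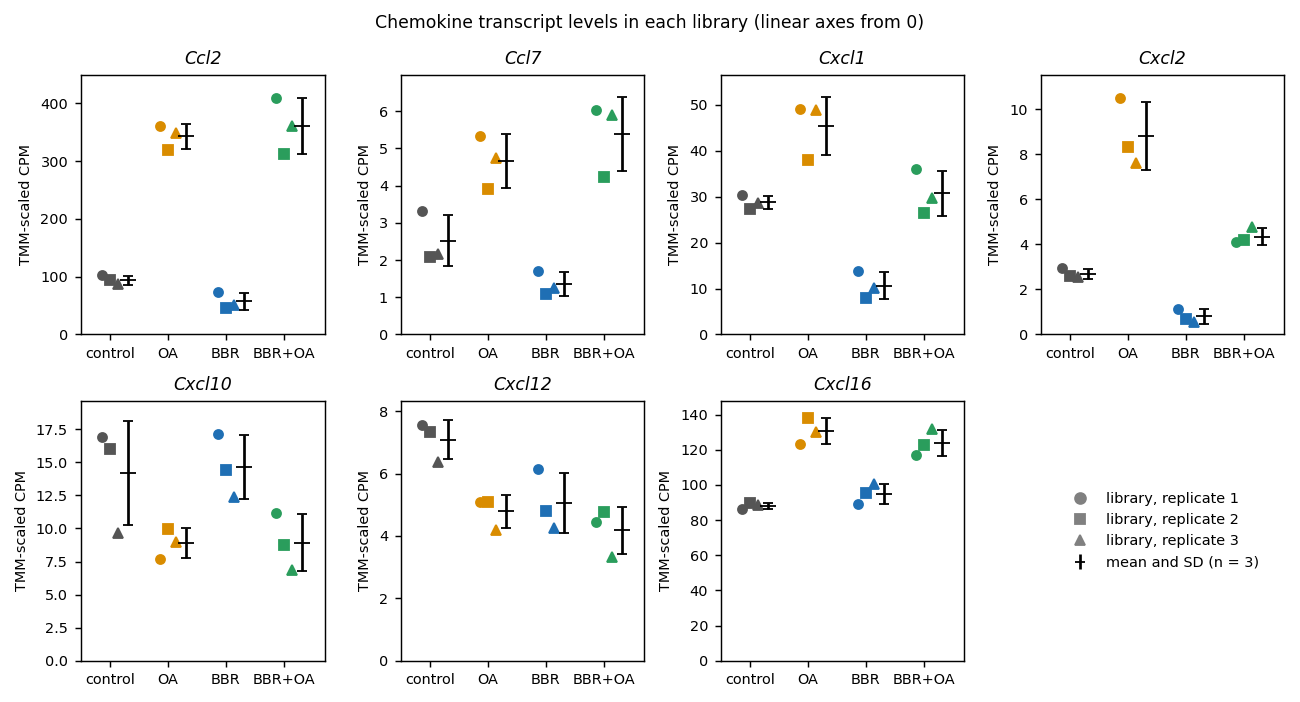
TMM-scaled CPM of the 7 tested chemokines in each of the 12 libraries, on linear axes from 0, with colors for groups, symbol shapes for replicate numbers and black bars for the mean and SD of 3 libraries. BBR libraries lie below the control libraries for Ccl2, Ccl7, Cxcl1, Cxcl2 and Cxcl12, and OA libraries lie above them for Ccl2, Ccl7, Cxcl1, Cxcl2 and Cxcl16.

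Ccl2 and Ccl7, neighbors on chromosome 11, are ligands of the receptor Ccr2 and the main attractants of monocytes. Ccl2 was 102.2, 93.7 and 86.6 CPM in the control libraries, 360.8, 319.6 and 347.8 in OA, 73.7, 46.6 and 51.2 in BBR, and 409.9, 312.8 and 361.0 in BBR+OA. The highest BBR library lay below the lowest control library, both groups with OA lay far above those without it, and the 2 groups with OA overlapped. Ccl2 was 1.62-fold lower in BBR than in control (log2 fold change -0.70, SE 0.11, adjusted p = 2.33e-04). OA raised it 3.65-fold (log2 1.87, SE 0.066, adjusted p = 9.23e-11), which was the 7th smallest p-value among the 12418 genes tested. In cells with BBR, OA raised Ccl2 6.25-fold (log2 2.64, SE 0.13, adjusted p = 2.66e-09). BBR+OA and OA differed by 0.074 on the log2 scale (95% interval -0.080 to 0.23, adjusted p = 0.671), an interval that excludes a fall of the size seen without OA. An antisense gene that overlaps Ccl2, Gm17268, had 0 counts in all libraries.

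Ccl7 followed the same order of groups at a level about as low as that of Cxcl2. It was 3.31, 2.09 and 2.15 CPM in control, 5.33, 3.90 and 4.75 in OA, 1.71, 1.09 and 1.24 in BBR, and 6.03, 4.23 and 5.89 in BBR+OA. All BBR libraries were below all control libraries, replicate 1 of control stood above the others of its group, and OA and BBR+OA overlapped. BBR lowered Ccl7 1.82-fold (log2 -0.86, SE 0.26, adjusted p = 0.0203). That call was lost without control replicate 1 (-0.62, adjusted p = 0.116), without BBR replicate 2 (-0.75, adjusted p = 0.0822) or without BBR replicate 3 (-0.79, adjusted p = 0.0694). OA raised Ccl7 1.87-fold in cells without BBR (log2 0.90, SE 0.20, adjusted p = 0.00246) and 3.90-fold in cells with it (log2 1.96, SE 0.22, adjusted p = 7.70e-06). The difference between BBR+OA and OA did not pass (log2 0.21, 95% interval -0.13 to 0.54, adjusted p = 0.565).

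Cxcl1, Cxcl2 and Cxcl5 carry the ELR motif of chemokines that act on Cxcr2 and draw neutrophils. Cxcl1 was 30.3, 27.4 and 28.5 CPM in control, 49.1, 38.0 and 49.0 in OA, 13.8, 8.01 and 10.2 in BBR, and 36.0, 26.4 and 29.8 in BBR+OA. No BBR library reached 14 CPM, every OA library was above every control and BBR+OA library, and BBR+OA overlapped control. BBR lowered Cxcl1 2.63-fold in cells without OA (log2 -1.39, SE 0.12, adjusted p = 5.49e-07) and 1.48-fold in cells with OA (log2 -0.56, SE 0.11, adjusted p = 0.00935). The second call was lost without BBR+OA replicate 2 (-0.46, adjusted p = 0.0654) or replicate 3 (-0.54, adjusted p = 0.0640). OA raised Cxcl1 1.58-fold in cells without BBR (log2 0.66, SE 0.090, adjusted p = 3.83e-05) and 2.82-fold in cells with BBR (log2 1.5, SE 0.15, adjusted p = 2.19e-06). BBR+OA and control differed by 0.094 on the log2 scale (95% interval -0.079 to 0.27, adjusted p = 0.410), so the ordering of these neighboring groups is not resolved.

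Cxcl2 showed the largest fitted fall with BBR among the 7 genes, in both media. It was 2.96, 2.62 and 2.53 CPM in control, 10.5, 8.35 and 7.61 in OA, 1.15, 0.705 and 0.537 in BBR, and 4.10, 4.18 and 4.76 in BBR+OA, and the BBR values rested on 25, 11 and 10 counts. The 4 groups did not overlap at all, in the order OA, BBR+OA, control, BBR. Cxcl2 was 3.26-fold lower in BBR than in control (log2 -1.71, SE 0.27, adjusted p = 1.87e-04) and 2.03-fold lower in BBR+OA than in OA (log2 -1.02, SE 0.15, adjusted p = 0.00100). OA raised it 3.27-fold without BBR (log2 1.71, SE 0.16, adjusted p = 9.41e-07) and 5.25-fold with BBR (log2 2.39, SE 0.25, adjusted p = 3.53e-06). Unlike Cxcl1, Cxcl2 remained higher in BBR+OA than in control (log2 0.68, SE 0.17, adjusted p = 0.00353).

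Cxcl5, the third ligand of this kind, was at the limit of detection. It had 7, 3 and 0 counts in control, 3, 1 and 3 in OA, 1, 0 and 0 in BBR, and 0, 3 and 0 in BBR+OA. A count of 0 allows up to 3 counts in a library, which corresponds to 0.127 to 0.194 CPM, so no difference in Cxcl5 was detectable at this depth. Cxcl1 and Cxcl2 are related in sequence, and reads shared between them could not be reassigned from counts, although both had whole-number counts in every library.

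Cxcl10, the ligand of Cxcr3 on T cells and natural killer cells, changed with OA and not detectably with BBR. It was 16.9, 16.0 and 9.67 CPM in control, 7.71, 9.97 and 8.99 in OA, 17.2, 14.4 and 12.4 in BBR, and 11.1, 8.78 and 6.85 in BBR+OA. Control replicate 3 was low and fell below 1 of the OA libraries, so that control and OA overlapped, whereas BBR and BBR+OA did not. OA lowered Cxcl10 1.58-fold without BBR (log2 -0.66, SE 0.17, adjusted p = 0.00709) and 1.64-fold with BBR (log2 -0.71, SE 0.15, adjusted p = 0.00196). BBR against control gave 0.072 on the log2 scale (95% interval -0.25 to 0.39, adjusted p = 0.785), and BBR+OA against OA gave 0.011 (95% interval -0.29 to 0.31, adjusted p = 0.980). Art3, which overlaps Cxcl10 on the other strand, had 0 to 5 counts per library.

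Cxcl12, the ligand of Cxcr4 that holds progenitor cells in their niches, was highest in control and lower in the other 3 groups. It was 7.56, 7.33 and 6.38 CPM in control, 5.11, 5.09 and 4.19 in OA, 6.13, 4.80 and 4.24 in BBR, and 4.46, 4.76 and 3.33 in BBR+OA. All control libraries lay above every other library, and the 3 treated groups overlapped. OA lowered Cxcl12 1.47-fold in cells without BBR (log2 -0.56, SE 0.13, adjusted p = 0.00376), and BBR lowered it 1.38-fold in cells without OA (log2 -0.46, SE 0.15, adjusted p = 0.0272). The BBR call was lost without control replicate 1 (-0.41, adjusted p = 0.0898), control replicate 2 (-0.44, adjusted p = 0.0804), BBR replicate 2 (-0.43, adjusted p = 0.0827) or BBR replicate 3 (-0.34, adjusted p = 0.127). In the presence of the other agent neither difference passed, with -0.19 for BBR+OA against OA (95% interval -0.51 to 0.14, adjusted p = 0.596) and -0.28 for BBR+OA against BBR (95% interval -0.63 to 0.070, adjusted p = 0.237).

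Cxcl16 and Cx3cl1, the membrane-anchored chemokines, lay at opposite ends of the range of levels. Cxcl16, which binds Cxcr6 and also takes up oxidized lipoprotein, was 86.2, 89.7 and 88.4 CPM in control, 123.5, 138.1 and 129.8 in OA, 89.2, 95.3 and 100.5 in BBR, and 117.1, 122.4 and 131.6 in BBR+OA. Its replicates lay closer together than those of the other genes, all libraries with OA were above all without it, and BBR overlapped control. OA raised Cxcl16 1.49-fold without BBR (log2 0.57, SE 0.052, adjusted p = 9.48e-07) and 1.30-fold with BBR (log2 0.38, SE 0.055, adjusted p = 8.75e-05). BBR against control did not pass (log2 0.12, 95% interval 0.016 to 0.22, adjusted p = 0.103), although it did without BBR replicate 1 (0.17, adjusted p = 0.0281). BBR+OA against OA gave -0.080 (95% interval -0.19 to 0.030, adjusted p = 0.486). The overlapping antisense gene Zmynd15 had 30 to 73 counts per library beside 1488 to 2549 for Cxcl16, and reads of the 2 cannot be told apart without knowledge of the strand. Cx3cl1, whose receptor marks patrolling monocytes, had 2, 3 and 2 counts in control, 1, 0 and 0 in OA, 4, 5 and 5 in BBR, and 3, 5 and 2 in BBR+OA, too few for a test.

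**Figure D3:**
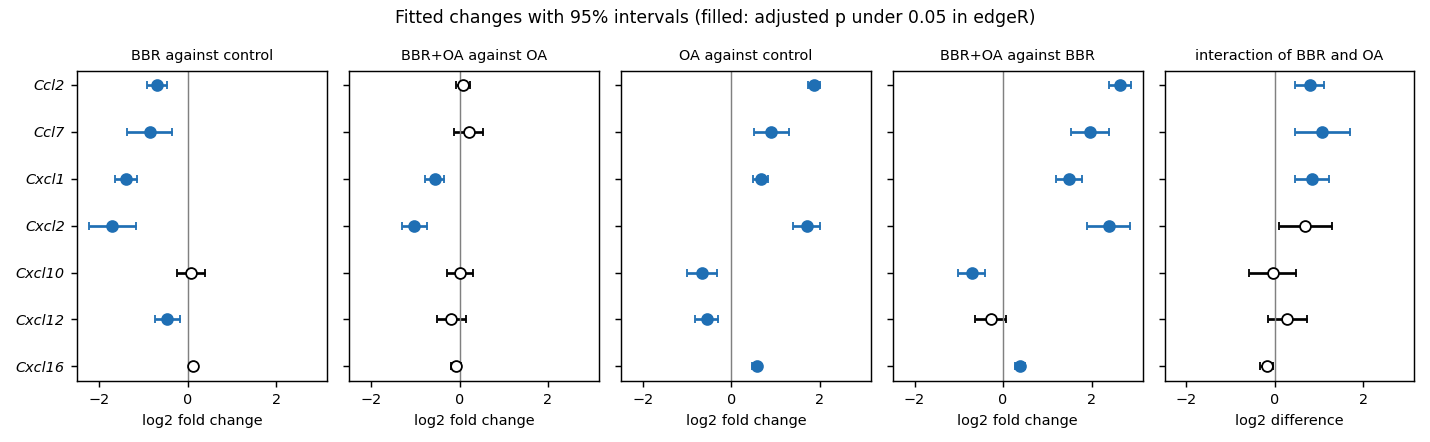
Fitted log2 fold changes of the 7 tested chemokines with 95% intervals (1.96 SE to each side) in 4 comparisons, and in the last panel the interaction of BBR and OA on the same scale, with filled symbols for an adjusted p under 0.05 in edgeR. Ccl2 and Ccl7 are filled left of 0 in BBR against control and open near 0 in BBR+OA against OA, whereas Cxcl1 and Cxcl2 are filled left of 0 in both.

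Whether BBR acted alike in both media was tested by the interaction of BBR and OA over all 12 libraries, where 12.2% of all 12742 genes were called and 6.87% were called with a positive sign. It was called for 3 of the 7 chemokines, each with a positive sign, meaning a smaller fall with BBR in the presence of OA or, equally, a larger rise with OA in the presence of BBR. For Ccl2 the difference was 0.78 on the log2 scale (SE 0.17, adjusted p = 0.00414), and for Cxcl1 it was 0.84 (SE 0.19, adjusted p = 0.00767). For Ccl7 it was 1.07 (SE 0.32, adjusted p = 0.0330). The Ccl7 call was lost when any of 6 libraries was left out, namely control replicate 1, OA replicate 2, BBR replicate 2 or 3, and BBR+OA replicate 1 or 3, with values of 0.84 to 1.0 and adjusted p of 0.0800 to 0.105.

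For Cxcl2 the interaction was 0.69 (95% interval 0.097 to 1.28, adjusted p = 0.155) and did not pass, but without BBR replicate 1 it was 1.10 (adjusted p = 0.0392). The interval for Cxcl2 holds the values of Ccl2, Ccl7 and Cxcl1, so the data do not show that Cxcl2 differed from them in this respect. The remaining genes did not pass either, with 0.29 for Cxcl12 (adjusted p = 0.473), -0.19 for Cxcl16 (adjusted p = 0.14) and -0.047 for Cxcl10 (adjusted p = 0.943).

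The group with both agents was also set against control, where 43.8% of all genes were called. There 6 of the 7 chemokines differed: Ccl2 was 3.83-fold higher, Ccl7 2.14-fold, Cxcl2 1.60-fold and Cxcl16 1.40-fold, whereas Cxcl10 was 1.57-fold and Cxcl12 1.68-fold lower. The adjusted p lay between 1.14e-11 for Ccl2 and 0.00797 for Cxcl10, and DESeq2 did not call Cxcl10 (adjusted p = 0.0898). Cxcl1 was the exception, as given above.

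Replicates of a group deviated together for several of these genes. Control replicate 1 and BBR replicate 1 were each the highest of their group for 6 of the 7 tested chemokines, all except Cxcl16. Replicate 1 was the highest in all 4 groups for Ccl2, Ccl7 and Cxcl1. Without BBR replicate 1, the log2 fold change of BBR against control was -0.93 for Ccl2, -1.08 for Ccl7, -1.64 for Cxcl1, -2.11 for Cxcl2 and -0.64 for Cxcl12, all still called and all larger falls than with it. Without control replicate 1 the values were -0.63 for Ccl2, -0.62 for Ccl7, -1.36 for Cxcl1, -1.64 for Cxcl2 and -0.41 for Cxcl12, all smaller falls, with Ccl7 and Cxcl12 no longer called. Control replicate 3 was the lowest of its group for Ccl2, Cxcl2, Cxcl10 and Cxcl12.

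Over the 12 libraries, the log2 CPM of Ccl2 and Ccl7 had a Pearson correlation of 0.964, and that of Cxcl1 and Cxcl2 one of 0.953. Once the group means were removed, the correlation of the deviations was 0.846 for Ccl2 and Ccl7, 0.513 for Cxcl1 and Cxcl2, 0.925 for Ccl2 and Cxcl1, and 0.686 for Cxcl10 and Cxcl12. Cxcl16 deviated the other way, with -0.622 against Ccl2 and -0.649 against Cxcl1. Ccl2 and Cxcl10 were opposed across groups (-0.737) but not within them (0.467). These are descriptions over 12 libraries, in which genes share library, depth and group.

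**Figure D4:**
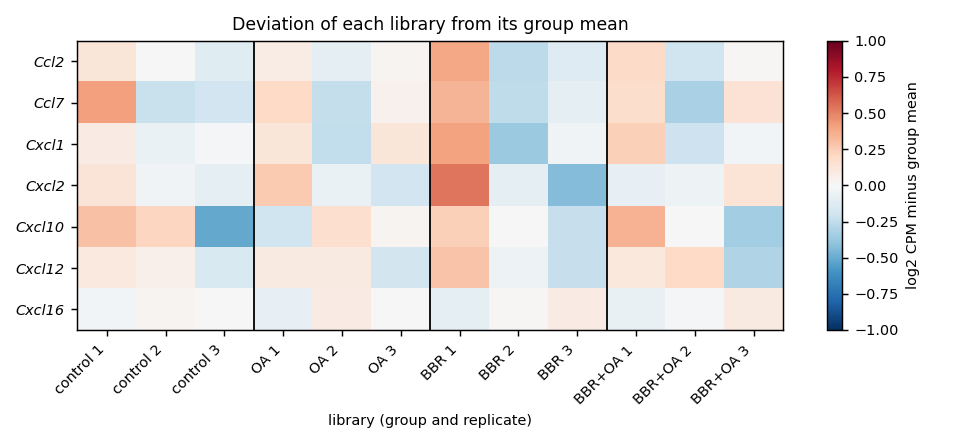
Deviation of each library's log2 CPM from the mean of its group, for the 7 tested chemokines in rows and the 12 libraries in columns, with red for above and blue for below the group mean. The columns of control replicate 1 and BBR replicate 1 are red for the same 6 of the 7 genes, and the Cxcl16 row is pale throughout.

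The genes whose log2 CPM was most like each chemokine over the 12 libraries, among 9710 genes with a mean of at least 5 CPM, were read as a description. For Cxcl2 the closest were Ccl9, another chemokine (Pearson r 0.989), Ikbke, a kinase of the NF-kB and interferon pathways (0.986), and Slc39a14, a metal transporter (0.981). For Ccl2 they were the basement membrane collagen Col4a1 (0.995), the secreted phospholipase homolog Pla2g12b (0.994) and the membrane-cytoskeleton linker Rdx (0.993). Cxcl1 was closest to Serpinf2, the plasmin inhibitor (0.983), to Crip2 (0.981) and to Mat2a, which makes S-adenosylmethionine (0.980). Ccl7 was closest to Ap2a2 (0.976), Ptp4a1 (0.975) and Got2 (0.974), and Cxcl16 to Arpc5 (0.981), Ampd3 (0.979) and Prelid3b (0.978). The closest genes to Cxcl10 were Dusp23 (0.945), Sec24b (0.931) and Arntl2 (0.911), and those to Cxcl12 were Inip (0.953), Nrp2 (0.923) and Tulp4 (0.921).

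Among 26 other chemokine genes, few were expressed enough to be tested, and Ccl9 alone was called lower with BBR. The counts here and in the lists that follow stand beside 27.7% of all genes called in BBR against control, 4.59% in BBR+OA against OA, 42.8% in OA against control and 38.9% in BBR+OA against BBR. Of 8 tested, 1 fell and none rose in BBR against control, and 1 fell in BBR+OA against OA. Ccl9, a Ccr1 ligand and the gene called in each, was 7.60 ± 1.0 CPM in control, 14.7 ± 1.63 in OA, 3.72 ± 0.653 in BBR and 10.1 ± 0.782 in BBR+OA (SD, n = 3). Its log2 fold change with BBR was -1.0 (adjusted p = 1.48e-04) without OA and -0.55 (adjusted p = 0.00803) with OA. In OA against control 3 of 10 rose and none fell, the largest change being that of Ccl3, another Ccr1 ligand, at 3.04 (SE 0.39, adjusted p = 2.50e-05). Likewise 3 of 9 rose in BBR+OA against BBR, including Ccl3 at 3.03 and the Ccr6 ligand Ccl20 at 2.22 (SE 0.41, adjusted p = 6.02e-04). Ccl3 stayed at or below 2.44 CPM in every library. It was 0.10, 0.48 and 0.17 CPM in control and 0.28, 0.19 and 0.054 in BBR. Ccl20 was 0.55, 0.064 and 0.32 CPM in BBR. These low starting values rest on few counts, so the sizes of these rises are uncertain. The median over the tested genes of the list lay between -0.057 and 0.20 in the 4 comparisons.

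Most chemokine receptor genes had too few counts for a test, and of 23 listed, 4 or 5 could be tested in a comparison. Ccr2, the Ccl2 receptor, had a mean of at most 0.053 CPM in any group, Cxcr2 at most 0.078 and Cxcr3 at most 0.039, and these means were taken after their values were known. The scavenging receptor of Cxcl12, Ackr3, rose in BBR against control (log2 fold change 0.66, SE 0.14, adjusted p = 0.00167) and no receptor fell. Its CPM was 6.26, 9.42 and 9.92 in control and 14.0, 11.8 and 14.6 in BBR, without overlap. Cxcr4 rose by 0.81 in BBR+OA against BBR (SE 0.28, adjusted p = 0.0307), a call that DESeq2 did not make for any receptor. None was called by edgeR, DESeq2 or limma voom in BBR+OA against OA or in OA against control, where 2 and 0 had an unadjusted p under 0.05 in edgeR.

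Genes that release, trim or retain chemokines at the cell surface moved in both directions. Of 14 tested from a list of 15 proteases and proteoglycans, 2 rose and 3 fell in BBR against control, where the proteoglycan Sdc3 changed by 0.57 and the membrane protease Mmp14 by -0.37. Mmp13, a collagenase, was the only gene of the list called in BBR+OA against OA, at -1.43 (SE 0.21, adjusted p = 0.00131). In OA against control 4 rose and 8 fell, led by Mmp13 at 1.76 and the gelatinase Mmp9 at 1.66. Another 3 rose and 5 fell in BBR+OA against BBR, with Sdc3 at -1.72 and Mmp9 at 1.46. The sheddases of Cxcl16 and Cx3cl1, named here after their values were seen, were Adam10 at 98, 90.4, 114.0 and 95.7 CPM and Adam17 at 51.8, 44.3, 53.8 and 49.5 CPM in control, OA, BBR and BBR+OA. Adam10 rose with BBR in cells without OA (log2 0.23, adjusted p = 0.00205) and fell with OA in cells with BBR (log2 -0.26, adjusted p = 6.54e-04), and Adam17 fell with OA in cells without BBR (log2 -0.22, adjusted p = 0.00504).

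NF-kB subunits, their inhibitors and known target genes mostly rose with OA. Of the 20 genes listed, 15 rose and 2 fell in OA against control (median log2 fold change 0.42), and 13 rose and 1 fell in BBR+OA against BBR (median 0.41). Tnfaip3, a ubiquitin editor that restrains NF-kB, rose by 1.19 in the former (adjusted p = 1.62e-07) and by 1.46 in the latter (adjusted p = 3.23e-08), and the adaptor Traf1 rose by 1.21 in the former. In BBR against control 8 of 19 tested fell and 1 rose (median -0.082), led by the adhesion molecules Vcam1 at -1.05 (SE 0.23, adjusted p = 0.00244) and Icam1 at -0.74 (SE 0.10, adjusted p = 5.42e-05). Ikbke was the 1 gene of 20 called in BBR+OA against OA, where it fell by 0.35 (adjusted p = 0.00236). Icam1 had the order of groups of Cxcl1 and Ccl2 in part: 50.3 ± 3.43 CPM in control, 92.8 ± 8.02 in OA, 29.5 ± 6.37 in BBR and 87.5 ± 5.23 in BBR+OA, with an interaction of 0.67 (SE 0.14, adjusted p = 0.00387). The interaction was called for 5 of the 20 listed genes, 4 positive and 1 negative, 25% beside 12.2% of all genes. The negative one was Tnip1, at -0.44 (SE 0.097, adjusted p = 0.00576), which was also the 1 gene that rose in BBR against control.

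Interferon-stimulated genes moved with OA in the direction of Cxcl10. Of 25 tested, 18 fell and none rose in OA against control (median -0.36), and 10 fell and none rose in BBR+OA against BBR (median -0.22). The antiviral genes Ifit3 and Ifi44 fell by 1.12 and 1.10 on the log2 scale in the former, and Ifi44 and Oasl2 fell by 1.03 and 0.84 in the latter. With BBR alone 6 of 26 fell and none rose (median -0.13), beside 14.5% of all genes called lower, with Ifit3 at -0.62 and Ifit2 at -0.61, whereas Cxcl10 itself did not pass. BBR replicate 3 stood apart, with a summed level of the list of 1609 CPM beside 2067 and 2162 in the other BBR libraries and 1962 to 2239 in control. Without BBR replicate 3, 1 gene fell and 1 rose (median 0.029), and without control replicate 1 or 2, 1 and 2 fell, so the fall of this list with BBR rested on single libraries. DESeq2 called 1 of these genes in that comparison and limma voom 6, and in BBR+OA against BBR they called 6 and 8. None of 25 was called by edgeR in BBR+OA against OA (median -0.030), where 2 had an unadjusted p under 0.05, DESeq2 called 1 and limma voom 0.

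**Figure D5:**
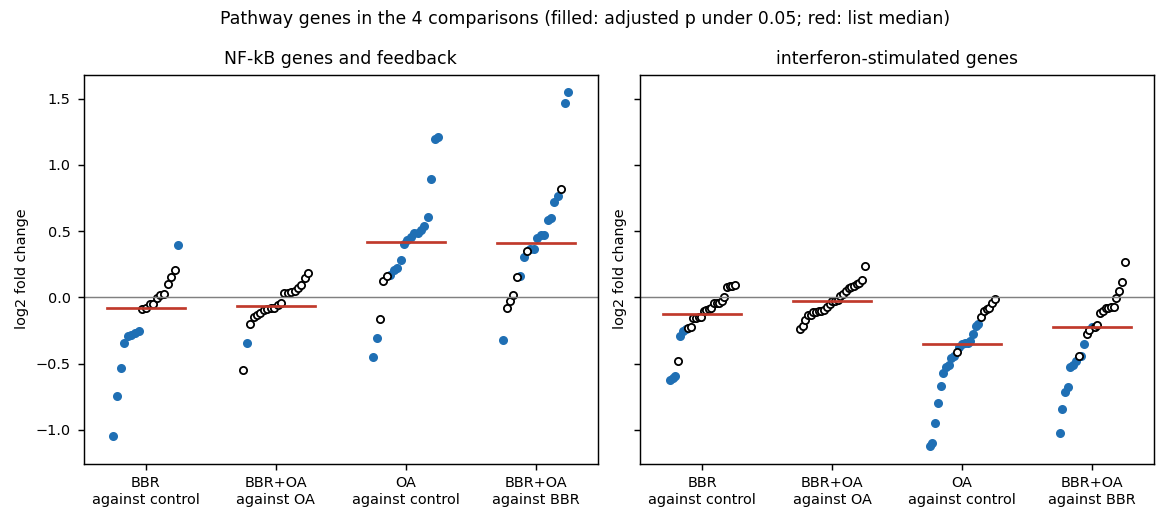
Log2 fold changes of the tested genes of the NF-kB list (left) and the interferon-stimulated list (right) in 4 comparisons, with filled points for an adjusted p under 0.05 in edgeR and red lines for list medians. The NF-kB medians are 0.42 and 0.41 in the comparisons of OA and the interferon medians -0.36 and -0.22, and both lists lie near 0 in BBR+OA against OA.

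Cytokines known to induce chemokines were low. Among 23 cytokine and receptor genes, Il1b, which encodes interleukin-1 beta, was 0.15, 0.19 and 0.13 CPM in control and 1.87, 2.28 and 2.30 in OA, a log2 difference of 3.75 (SE 0.35, adjusted p = 1.05e-06). The control values were near the 0.127 to 0.194 CPM that 3 counts are worth, so the size of this difference is uncertain. Il1b had too few counts for a test in BBR against control. Il1a rose by 1.89 in the same comparison (SE 0.29, adjusted p = 1.11e-04). In cells with BBR, OA raised Il1b by 2.82 (SE 0.46, adjusted p = 2.12e-04) and the interferon gamma receptor chain Ifngr1 by 0.73 (SE 0.040, adjusted p = 9.34e-09). Over the list, 7 rose and 3 fell of 18 tested in OA against control, and 10 rose and 2 fell in BBR+OA against BBR. With BBR alone 5 of 16 fell and none rose, among them the interleukin-1 receptor Il1r1 at -0.50 (adjusted p = 6.46e-04) and Tlr2 at -0.33 (adjusted p = 0.0142). Il6st alone was called in BBR+OA against OA, at 0.24. Il17a and Ifng had 0 counts in all 12 libraries.

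Factors that bind AU-rich elements and control the decay of chemokine mRNA changed in both directions. Of 7 listed, 2 rose and 1 fell in BBR against control, 1 fell in BBR+OA against OA, 3 rose and 1 fell in OA against control, and 1 rose and 2 fell in BBR+OA against BBR. Zfp36 (tristetraprolin) rose with OA by 0.63 without BBR (adjusted p = 1.04e-06) and by 0.52 with BBR (adjusted p = 6.72e-06). Its relative Zfp36l1 fell by 0.53 and 0.28 in these comparisons. In BBR against control, where 5 of the 7 tested chemokines fell, Zfp36 also rose, by 0.22 (adjusted p = 0.0156). Zfp36l1 fell there by 0.40 (adjusted p = 2.36e-05). A link between these changes and the levels of chemokine mRNA was not tested. Elavl1 (HuR), which stabilizes such mRNAs where the other named factors hasten their decay, was among those that rose in OA against control, by 0.22 (adjusted p = 0.0145).

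Transcripts of other liver cells were present in the cultures, and some of their markers differed between groups, in part no more often than all genes did. In bulk RNA, fewer cells of a type and less RNA per cell cannot be told apart. All 12 Kupffer cell and macrophage markers examined had counts, and their summed level was 252.2 to 266.7 CPM in control, 245.2 to 256.1 in OA, 292.0 to 350.7 in BBR and 234.4 to 241.3 in BBR+OA, most of it Cd14 and Cd68. In OA against control, where Ccl2 rose, 3 markers rose and 7 fell: Marco, Lyz2 and Adgre1 rose by 2.51, 1.67 and 1.41, and the Kupffer cell genes Clec4f and Vsig4 fell by 1.28 and 1.17. With BBR present, 3 rose and 4 fell, with Marco at 2.27. In BBR against control, where 5 chemokines fell, Cd68 rose by 0.71 and Cd5l fell by 0.68, 2 of 12 tested (16.7% beside 27.7% of all genes). Cd14 alone was called in BBR+OA against OA, at -0.18. The part of these cells in the chemokine changes was not tested.

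Endothelial markers, all 10 with counts, summed to 68.0 to 91.4 CPM over the 12 libraries. In BBR against control 3 of 10 tested rose and none fell, 30% beside 27.7% of all genes. In OA against control 1 of 9 rose and 2 fell, 33.3% beside 42.8%. In BBR+OA against BBR 2 of 9 rose and 4 fell, 66.7% beside 38.9%, and none was called in BBR+OA against OA. Stellate cell and fibroblast markers, all 10 with counts, summed to 27.9 to 34.1 CPM. In BBR against control 1 of 8 tested fell, Acta2 at -0.97 (12.5% beside 27.7% of all genes). In OA against control 2 of 7 were called, Col1a1 at -0.85 and Reln at 0.32 (28.6% beside 42.8%). None was called in BBR+OA against OA or against BBR. Cholangiocyte markers summed to 198.8 to 719.9 CPM, mostly Spp1, which hepatocytes can also express. All 4 of them tested were called in BBR against control, with Epcam at 0.92, Krt19 at 0.68, Sox9 at 0.61 and Spp1 at -0.83. In OA against control Spp1 fell by 1.58 and Sox9 rose by 0.60, and in BBR+OA against BBR 2 fell. The part of these markers in the chemokine changes was not tested either. Neutrophil markers summed to 0.0641 to 0.912 CPM, with Mpo and Retnlg at 0 in all libraries, and lymphocyte markers to 1.0 to 1.85 CPM, with Cd3e, Cd3d, Cd3g, Ms4a1, Nkg7 and Klrb1c at 0.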

How the data were processed

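RNA sequencing of polyadenylated RNA from primary cultured mouse hepatocytes was analyzed in 12 libraries, grouped by the treatment labels. For each library the authors deposited an estimated count and an FPKM value for 22471 features. Per the labels the genome build was mm10. The aligner, counting program, annotation and strand setting are not given in the sources used here. Estimated counts were fractional for 2862 features (of the chemokines, Cxcl16 alone) and were rounded. Where a symbol had more than 1 feature, the one with the highest mean CPM was used.

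Counts were tested in edgeR 4.0.16 (R 4.3.3) with its quasi-likelihood F test (two-sided) on the 6 libraries of each comparison, after filterByExpr (minimum count 10) and TMM scaling, with Benjamini-Hochberg adjustment over all genes tested. The interaction of BBR and OA was fitted on all 12 libraries. SE was derived from the F statistic, and 95% intervals are 1.96 SE to each side. The factor 1.96 is that of a normal distribution, so these intervals are somewhat narrower than the F test implies. Levels are TMM-scaled CPM, and deposited FPKM was used to compare levels between genes and for the summed level of the chemokine family. The fits of BBR against control and of the interaction were also run on simulated counts with known changes. Far fewer genes were changed there than were called here, so that run does not show how the fits behave on these data. A floor of 3 counts was taken as the limit that a count of 0 allows, and it covers counting error only.

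The chemokines, the lists and the tests were chosen with earlier results of these data known. Named genes were the 9 chemokines, the 3 genes most correlated with each (log2 CPM with prior count 2), and from each list the 2 called genes with the largest change and at least 1 CPM. Other genes named from the lists (Adam10, Adam17, Ccr2, Cxcr2, Cxcr3, Adgre1, Clec4f, Vsig4, Elavl1, the cholangiocyte markers and the genes at 0) were chosen after their values were seen.

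Alternatives were other scalings and filters, DESeq2 1.42.0, limma 3.58.1 with voom, a replicate block, other thresholds, 1 fit over all libraries and leaving out each library. The comparison of BBR+OA with control, as part of the order of groups, had its alternatives added after the data were seen, as did the interferon-stimulated list without single libraries.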

Additional observations from a re-analysis of the deposited data

Results flagged for a closer look

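The effect of BBR differed between media for 3 chemokines by the interaction term in edgeR, fitted over 12 libraries. The difference (BBR effect with OA minus BBR effect without OA) was 0.78 on the log2 scale for Ccl2, 1.07 for Ccl7 and 0.84 for Cxcl1. For Ccl2 the BBR effect was -0.70 without OA and 0.074 with OA, for Ccl7 -0.86 and 0.21, and for Cxcl1 -1.39 and -0.56. Dixon's test for outlying samples was not applied to groups of 3 libraries.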

How the results depend on the processing

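Of 770 alternative values of single chemokine changes, none reversed a called direction, 736 stayed on the same side of the threshold, 17 lost a call, 3 gained one and 14 were uncalled values that changed sign. Other scalings, filters, DESeq2, limma voom and the fit over all libraries changed 2 of the calls described: limma voom left the Ccl7 interaction at 1.04 (adjusted p = 0.0522), and DESeq2 left Cxcl10 in BBR+OA against control at an adjusted p of 0.0898. Requiring a 2-fold change as well left 2 chemokines called in BBR against control in place of 5, 1 in BBR+OA against OA in place of 2, 2 in OA against control in place of 7, 1 in the interaction in place of 3 and 2 in BBR+OA against control in place of 6. An unadjusted p under 0.05 gave 5 in the interaction. Leaving out 1 library at a time gave 3 to 6 called chemokines in BBR against control, 1 to 2 in BBR+OA against OA, 2 to 4 in the interaction, 7 in OA against control, and 6 in BBR+OA against BBR and against control. The libraries behind these losses are named with each gene above.

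Nothing in the labels says that a replicate number marks a shared mouse or day, and the main fits held no replicate block. Over 12 same-numbered pairs the correlation of deviations was weak but positive, at 0.0234 to 0.155. In 11 of 12 the own number gave the highest, and what same-numbered libraries shared is not known. With a replicate block, more of all genes were called: 33.1% in place of 27.7% in BBR against control. The share was 10.9% in place of 4.59% in BBR+OA against OA and 53.4% in place of 42.8% in OA against control. It was 42.5% in place of 38.9% in BBR+OA against BBR and 17.8% in place of 12.2% in the interaction. Of the chemokines, Cxcl16 was also called in the interaction (-0.19, adjusted p = 0.0357), which made 4, and no other chemokine call changed. Depth limits Cxcl5 and Cx3cl1, and Cxcl2 in BBR rests on 10 to 25 counts.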
